A study of Mus musculus with 4 samples.

Results

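The transcription factors that read the Wnt signal in the nucleus, and the genes that damp the signal in return, were examined in sorted Lgr5-high intestinal stem cells of mice with and without the type I interferon receptor chain Ifnar1. The set was chosen by name and holds 10 genes: the TCF/LEF factors Lef1, Tcf7, Tcf7l1 and Tcf7l2, the feedback inhibitors Axin2, Rnf43, Znrf3, Nkd1 and Notum, and the target transcription factor Sp5. It was read from 16 array probes, and 9 of the 10 genes had a probe bright enough to enter a comparison that covered 24865 genes. Of these, 14799 have a gene symbol. The rest are transcripts or probes without one, and each share of all genes below counts them too. Control mice carried the Lgr5-EGFP-Ires-CreERT2 knock-in allele, which places a green fluorescent reporter and an inducible Cre under the Lgr5 locus. Knockout mice carried the same allele together with Ifnar1-/-. Both groups were given poly(I:C), a double-stranded RNA mimic that evokes interferon, by intraperitoneal injection at 2 mg/kg of body weight. The series text has the injections given each day for 1 week before the cells were taken, whereas the sample labels put the cells 1 week after injection, so the time since the last dose is uncertain. Each value below comes from treated animals; untreated mice are not analysed here. The labels give no age, and they do not say whether the 2 samples of a group came from separate animals, so the spread behind each p-value may be technical.

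Wnt ligands at the crypt base hold beta-catenin back from degradation, and beta-catenin then binds TCF/LEF proteins on DNA and turns their target genes on. Several of those targets shut the signal down again, at the cell surface, at Dishevelled or in the beta-catenin destruction complex, and their RNA is therefore widely used as a gauge of Wnt activity. In the intestine this pathway keeps Lgr5 stem cells dividing, and Tcf7l2 is the family member on which the crypts depend.

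Each sample was hybridised to its own single-colour array. The array barcodes and scan times place control 1 with knockout 1 on slide 1 and control 2 with knockout 2 on slide 2, so the replicate number is also the slide. Between 63.3% and 67.7% of non-control spots were well above background and 0 were saturated, and 4 arrays limit the precision of what follows. Values are log2 of the signal after each array was set to its 75th percentile, at which the value is 0. Ifnar1, the targeted gene, was at -0.21 and -0.37 in the control against -1.76 and -2.28 in the knockout (limma with slide block, adjusted p = 0.0462; without it, adjusted p = 0.48); the labels do not say whether its probe lies in the deleted part. Lgr5, by which the cells were sorted, was at 3.04 and 2.82 in the control against 3.32 and 2.93 in the knockout. Paneth cell RNA was lower in the knockout sorts: the summed signal of the 6 Paneth markers with a probe, in multiples of the 75th percentile, was 435 and 549 in the control against 117 and 187 in the knockout. Enteroendocrine markers summed to 8.01 and 11.9 in the control against 4.49 and 7.49 in the knockout. Of these, 7 of 8 were lower on both slides, as were 27.2% of all genes. Enterocyte markers summed to 53.2 and 62.6 against 73.6 and 79.7. Of these, 6 of 8 were higher on both slides, as were 34.0% of all genes. The part of these cell types in the values below was not tested.

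No member passed the test between knockout and control. Axin2, Tcf7l2, Rnf43 and Notum, each well above background on all 4 arrays, differed between the groups by 0.12 or less on the log2 scale. Sp5 was higher by 0.58 and Tcf7 by 0.52 in the knockout on the log2 scale, on both slides, and neither passed. Lef1 gave a signal above background in the knockout alone at one of its probes, and the 2 probes of Nkd1 pointed in opposite directions. Limma, fitted over all genes with Benjamini-Hochberg adjustment at 0.05, called 0 of the 9 tested members without a slide term, where it called 0 of all genes (0%), and 0 of 9 with the slide as a block, where it called 103 genes or 0.414%. The smallest adjusted p among the members was 0.166, for Lef1 with the slide block. At an unadjusted p under 0.05 there were 2 members without the block, Lef1 and Nkd1, against 2.76% of all genes, and 4 with it, Lef1, Nkd1, Tcf7 and Sp5, against 12.3%. The median difference over the 9 was 0.11, or 0.32 with the other Nkd1 probe, and that over all genes 0.02. Lef1 entered the test only through the arrays on which it was bright and so had to differ. Each Nkd1 probe likewise passed only through the group in which it was brighter, the control for the tested probe and the knockout for the other. These counts and medians therefore describe the set and support nothing more.

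**Figure D1:**
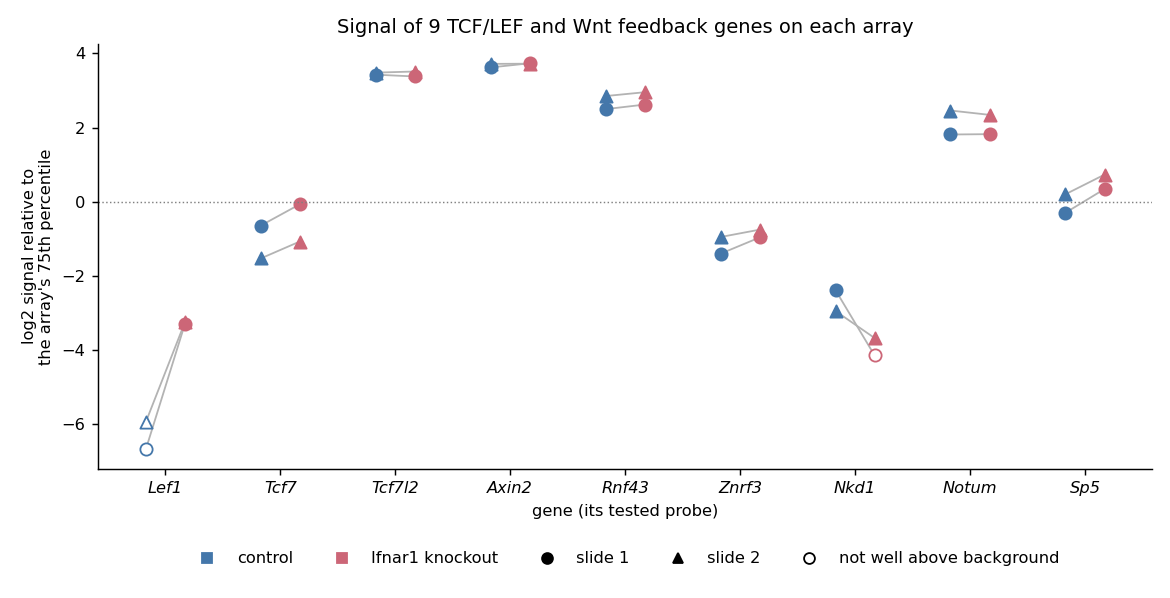
Log2 signal with the 75th percentile of each array at 0 (vertical axis), for the tested probe of 9 genes on each of the 4 arrays. Lines join the control and knockout arrays of 1 slide, and open symbols were not well above background. Axin2, Tcf7l2, Rnf43 and Notum run nearly level from control to knockout, Lef1 is above background in the knockout alone and this Nkd1 probe is lower there; heights are not comparable between genes, since each probe has its own brightness.

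Promoter windows of 3 members are shown because they illustrate how differently the letters recognised by TCF/LEF proteins are spread among genes of this set. The windows run from 250 bases before to 50 bases after a RefSeq transcript start on build GRCm38.p6, on the plus strand, and capitals mark CTTTG or its reverse CAAAG, the core of the TCF/LEF recognition sequence, extended to CTTTGAT where the longer form is present. Sp5 lies at chr2:70474673-70474972, the first Lef1 window at chr3:131110047-131110346 and Axin2 at chr11:108920099-108920398.
Sp5: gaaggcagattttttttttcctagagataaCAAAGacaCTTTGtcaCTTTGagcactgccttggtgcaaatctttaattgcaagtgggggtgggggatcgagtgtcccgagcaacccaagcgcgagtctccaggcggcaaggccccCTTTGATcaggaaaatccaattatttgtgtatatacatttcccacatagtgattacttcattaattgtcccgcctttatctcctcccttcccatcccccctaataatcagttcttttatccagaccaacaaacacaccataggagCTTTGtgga
Lef1: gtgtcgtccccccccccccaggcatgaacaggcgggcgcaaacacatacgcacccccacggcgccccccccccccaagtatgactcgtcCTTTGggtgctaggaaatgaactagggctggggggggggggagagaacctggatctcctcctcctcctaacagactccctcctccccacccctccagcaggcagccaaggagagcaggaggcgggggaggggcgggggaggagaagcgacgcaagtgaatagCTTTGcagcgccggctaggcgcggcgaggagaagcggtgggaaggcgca
Axin2: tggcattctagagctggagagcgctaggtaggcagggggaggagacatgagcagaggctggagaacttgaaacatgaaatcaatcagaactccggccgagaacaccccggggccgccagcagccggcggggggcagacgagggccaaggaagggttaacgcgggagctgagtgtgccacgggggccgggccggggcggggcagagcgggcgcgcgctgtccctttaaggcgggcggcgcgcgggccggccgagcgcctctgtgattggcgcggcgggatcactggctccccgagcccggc

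The Sp5 window held 5 copies of the core, a number reached by 94 of 32851 windows of the same length (0.286%). It had the most copies of the 14 member windows, and that share does not allow for this. Of the 5 copies 1, beginning 104 bases before the start, was the longer CTTTGAT, which 3.73% of windows hold on either strand. Lef1 had 2 copies in this window, the first beginning 161 bases before the start, and the Axin2 window had none. Of 14 windows listed for 8 members, 8 held the core, against 53.9% of all windows. Lef1, Tcf7, Rnf43 and Tcf7l2 are counted at several starts each. The first 2 Lef1 windows share most of their bases, so the same copies of the core are counted in both. The windows with the core belong to Sp5, Lef1, Tcf7l1 and Tcf7l2. Windows of Znrf3 and Notum are not used here. The core of the element through which interferon-activated factors bind (GAAA, any 2 bases, GAAA) was searched on both strands as well and was in 0 of the 14 member windows, against 3.44% of all windows. A match is a string of letters and not a bound site, and its absence says only that these letters are missing from this window.

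Tcf7l2, the crypt's principal TCF, had the smallest difference of the 9 tested members. Its brightest probe gave 3.43 and 3.48 in the control against 3.38 and 3.51 in the knockout, in order of slide. The knockout values lie on either side of the control values. The difference was -0.01 with a 95% interval of -0.22 to 0.20 in limma with the slide block, which corresponds to 0.858 to 1.15 times the control level (adjusted p = 0.977; without the block, 0.729 to 1.36 times and adjusted p = 1.00). A second Tcf7l2 probe, annotated to another transcript of the gene, gave 2.65 and 3.01 in the control against 2.70 and 2.95 in the knockout. Here the slides differed by 0.31 and the groups by less than 0.01. A probe for another transcript was above background on control 1 alone, at -3.56, and that form was not compared.

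Tcf7, which encodes TCF1, a factor shared by crypt cells and T lymphocytes, had 2 probes. At the brighter one the control gave -0.64 and -1.53 and the knockout -0.07 and -1.07. The knockout was above its slide partner both times, by 0.58 and 0.46, but the groups overlapped and slide 2 lay below slide 1 by 0.94 on average. The difference of 0.52 had an unadjusted p of 0.0207 and an adjusted p of 0.333 in limma with the slide block. The dimmer Tcf7 probe gave -1.84 and -2.05 in the control against -1.59 and -2.27 in the knockout, a difference of 0.02 whose sign turned between slides. With both probes averaged the Tcf7 difference was 0.27. Leaving out 1 array moved the first probe's difference between 0.01, without knockout 1, and 1.02, without knockout 2, with 0.07 without control 2 and 0.96 without control 1.

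Lef1, the family member best known from T lymphocytes and from intestinal tumours, had a control signal in the background. The probe used for the test gave linear intensities of 2.37 and 4.01 in the control against 23.8 and 26.6 in the knockout, and the deposited error estimates of the knockout spots were 3.63 and 3.50. On the log2 scale these are -6.68 and -5.94 against -3.30 and -3.25. Both knockout arrays were flagged well above background and neither control array was. Because the control had only a bound, the fitted difference of 3.04 is no fold: measured from the dimmest probe that cleared background on the control arrays, the knockout was at least 2.25-fold higher (limma with slide block, adjusted p = 0.166; without it, adjusted p = 0.524). Normexp background correction with an offset of 50, which adds a constant to dim spots, brought the difference to 0.51.

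The other Lef1 probe, annotated to the same transcript, did not follow. It read -6.50 and -2.52 in the control against -6.17 and -6.63 in the knockout. Control 2 alone was above background, at a linear intensity of 43.1 with an error estimate of 5.25, and the knockout arrays stood at 3.26 and 2.56. Each Lef1 probe was thus dark on arrays where the other was lit, and no array lit both. The second probe did not enter the test, since it was well above background on 1 array. As the 2 probes disagree, no direction can be given for Lef1 from these arrays.

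T cells carry Lef1 and Tcf7, so their markers are given here. All 16 T cell markers on the list had a probe: 9 were well above background on all 4 arrays, and 4, among them the receptor chain Cd3d and the surface protein Cd2, on none. Their summed signal was 6.49 and 10.1 in the control against 7.70 and 11.2 in the knockout, in multiples of the 75th percentile. The knockout was above the control within each slide, and slide 2 was above slide 1 in each group. Of 11 tested T cell markers 4 were higher and 2 lower on both slides, where 34.0% and 27.2% of all genes were. Their median difference was 0.19. Higher were the granzyme gene Gzma by 1.06 (0.77 and 1.35 within the slides) and the receptor chain Cd3g by 0.83 (1.32 and 0.34). So were the co-receptor Cd8a by 0.67 (0.85 and 0.48) and the granzyme gene Gzmb by 0.48 (0.71 and 0.24). Gzma had an adjusted p of 0.127 in limma with the slide block. Lower were the kinase Lck, at -0.36 (-0.41 and -0.32), and the co-receptor chain Cd8b1, at -0.27 (-0.10 and -0.45). The other tested markers changed sign between slides. Among them, the receptor chain Cd3e was at -0.47 and -0.23 in the control against -0.38 and -0.29 in the knockout. Of 5 common leukocyte markers, 4 were well above background on no array, and Ptprc differed by 0.07. The part of T cell RNA in the Lef1 and Tcf7 values was not tested, and in bulk samples fewer cells of a type and less RNA per cell cannot be told apart.

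Tcf7l1, the family member best known as a repressor, was not well above background on any array at its 1 probe. Its linear intensities ran from 2.44 to 5.72, and it was not compared.

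Axin2, the scaffold of the destruction complex that Wnt signalling induces to limit itself, was at 3.62 and 3.72 in the control against 3.73 and 3.72 in the knockout. The 4 values span 0.11, and the groups separate by less than 0.01. The difference was 0.06, with an interval of 0.90 to 1.20 times the control level in limma with the slide block (adjusted p = 0.808) and 0.767 to 1.41 times without it. A second Axin2 probe gave 1.85 and 1.74 against 1.90 and 1.90, a difference of 0.10 (limma with slide block over all probes, adjusted p = 0.738). These intervals bound the Axin2 difference and do not show that the levels are equal.

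Rnf43 and Znrf3 encode membrane ubiquitin ligases that remove Frizzled receptors and are themselves removed by R-spondin bound to Lgr receptors. Rnf43 was at 2.50 and 2.85 in the control against 2.62 and 2.95 in the knockout. The knockout lay 0.12 and 0.10 above its slide partner, while slide 2 lay 0.34 above slide 1 (difference 0.11, 0.926 to 1.26 times the control; limma with slide block, adjusted p = 0.635). Znrf3 was at -1.40 and -0.95 in the control against -0.96 and -0.75 in the knockout. Control 2 lay just above knockout 1, and the difference of 0.32 had an interval of 0.924 to 1.68 times the control (limma with slide block, adjusted p = 0.50). Leaving out 1 array moved the Znrf3 difference between 0.09, without control 1, and 0.54, without control 2.

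Notum, a secreted enzyme that strips the lipid from Wnt proteins, was at 1.81 and 2.46 in the control against 1.82 and 2.34 in the knockout. The slides parted these values by 0.58 and the groups by -0.05, with an interval of 0.809 to 1.15 times the control level in limma with the slide block (adjusted p = 0.859) and 0.568 to 1.63 times without it.

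Nkd1, which binds Dishevelled and dampens the signal, had 2 probes annotated to the same transcript that disagreed. The tested probe gave -2.39 and -2.95 in the control against -4.15 and -3.68 in the knockout. Both knockout values lay below both control values, and knockout 1 was not well above background, so 3 of the 4 arrays measured it. Its difference was -1.24, from -1.76 in the first pair to -0.73 in the second (limma with slide block, unadjusted p = 0.0205 and adjusted p = 0.333). The other probe gave -3.69 and -4.02 in the control against -2.66 and -2.81 in the knockout. Here the knockout lay above the control on both slides, by 1.03 and 1.20 (limma with slide block over all probes, unadjusted p = 0.0149 and adjusted p = 0.312). Control 2 was the array not well above background. Each Nkd1 probe passed the filter only through the group in which it was brighter, and these p-values do not allow for that. The probes were almost equally bright on average, so a small change of scaling exchanged them: quantile normalization gave 1.12 and normexp correction 0.35 for the gene, and the mean of both probes gave -0.06.

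Opposed probes were found in other genes too. Of 3773 named genes with at least 2 kept probes, 465 (12.3%) had probes on opposite sides on both slides. A gap as wide as the 2.36 of Nkd1 was found in 4 genes, Nkd1 included, the others being Rgs12, Itsn1 and Cyp4a31, which were picked out after their values were seen. No direction can be given for Nkd1 from these arrays.

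**Figure D2:**
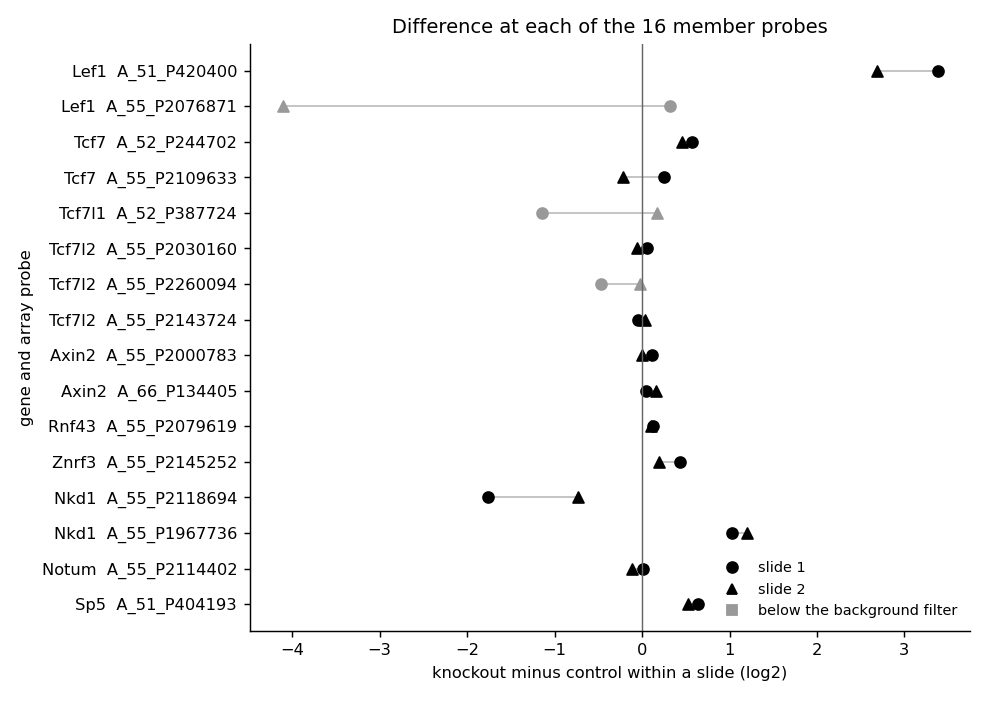
Knockout minus control within slide 1 (circles) and slide 2 (triangles), on the log2 scale (horizontal axis), at each of the 16 probes of the 10 genes; grey marks the 3 probes that did not pass the background filter. The 2 Nkd1 probes lie on opposite sides of 0 on both slides, the second Lef1 probe has its signal on slide 2 in the control, and the probes of Axin2 and the 2 bright probes of Tcf7l2 lie close to 0.

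Sp5, a zinc finger transcription factor switched on by TCF and beta-catenin, was well above background on all 4 arrays and its values did not overlap between groups. The control gave -0.30 and 0.20 and the knockout 0.34 and 0.73. The lowest knockout value exceeded the highest control value by a margin smaller than the difference of 0.44 between slides. The difference was 0.58, 0.64 within slide 1 and 0.53 within slide 2, or 1.20 to 1.88 times the control level by the 95% interval of limma with the slide block (unadjusted p = 0.00534, adjusted p = 0.235). Without the block the interval ran from 0.927 to 2.43 times (adjusted p = 1.00). Its interval with the block excludes a ratio of 1, but intervals are not adjusted for the number of genes tested. The difference lay between 0.34, without control 1, and 0.83, without control 2, when 1 array was left out.

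Across the set, 3 of 9 tested members (Lef1, Axin2 and Sp5) had both knockout values above both control values, as did 14.5% of all genes, and 1 (Nkd1, at the probe tested) had both below, as did 11.4%. With the other Nkd1 probe the counts are 4 above and 0 below. For Axin2 that separation is under 0.01, so the count says little about size. Lef1 and each Nkd1 probe were kept only through the group in which they were brighter, so their place in these counts supports nothing. For 5 of the 9 the mean difference between slides was larger than that between groups, as it was for 67.3% of all genes.

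**Figure D3:**
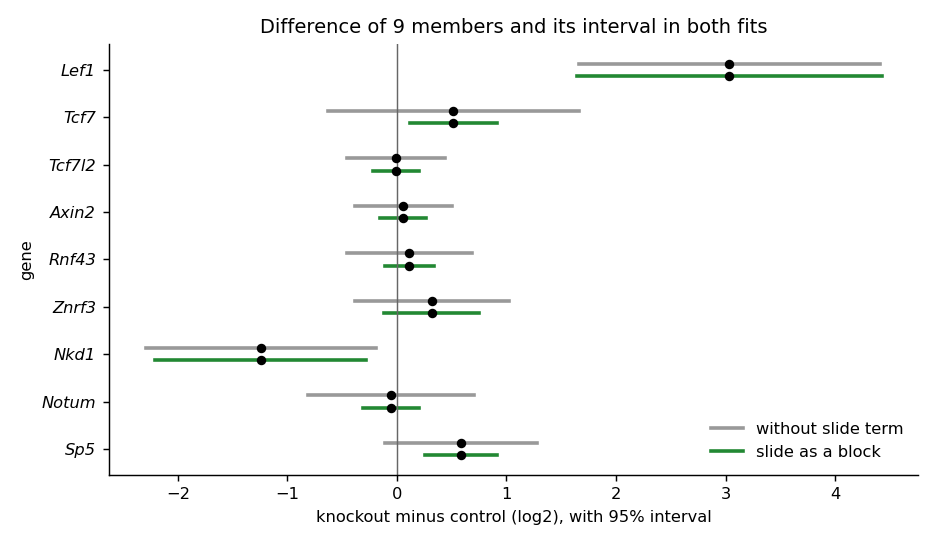
Knockout minus control on the log2 scale (points) with 95% intervals for 9 genes, from limma without a slide term (grey) and with the slide as a block (green). The intervals of Axin2, Tcf7l2, Rnf43, Znrf3 and Notum include 0 in both fits. Those of Tcf7 and Sp5 exclude 0 with the block alone, and those of Lef1 and Nkd1 exclude it in both. Intervals are not adjusted for the number of genes, and that of Lef1 rests on control values in the background. Lef1 and the tested Nkd1 probe passed the background filter only through the group in which they were brighter.

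The rest of the Wnt pathway was read from 7 lists of 112 distinct genes, of which 89 were tested. Limma called 0 of them in either fit, and 13 (14.6%) had an unadjusted p under 0.05 with the slide block, near the 12.3% of all genes; without the block 4 did. Their median difference was 0.01. Over all genes, 34.0% were higher and 27.2% lower on both slides, and the counts of each list below are to be read against these shares.

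Wnt ligands were the list with the lowest median. Of 14 tested ligands 5 were lower on both slides and 1 higher, and the median was -0.21. That median ran from -0.10, without knockout 1, to -0.49, without knockout 2, when 1 array was left out, with -0.32 without control 1. Wnt3, which Paneth cells supply to stem cells, was at -0.21 and -0.49 in the control against -1.41 and -0.72 in the knockout (limma with slide block, adjusted p = 0.382). Its gap was wider on slide 1, at -1.20, against -0.23 on the other slide. Paneth RNA was lower in the same sorts, as given above, and its part in the Wnt3 value was not tested. Wnt5b, a ligand that acts largely outside beta-catenin, differed by -0.46 (adjusted p = 0.41). In the machinery that releases ligands, Porcn, which attaches their lipid, differed by 0.83 and Wls, which carries them to the surface, by 0.47 (limma with slide block, adjusted p = 0.373 and 0.393). The 4 R-spondin genes did not pass the background filter.

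Of 15 tested receptors 5 were higher and 5 lower on both slides, shares near those of all genes, with a median of 0.06 that was -0.14 without control 2, -0.19 without knockout 1 and 0.28 without knockout 2. Fzd9 was at -1.82 and -1.79 in the control against -3.33 and -2.91 in the knockout, and Fzd1 at -2.20 and -3.18 against -1.37 and -1.75. Both Frizzled genes parted the groups without overlap, in opposite directions, and neither passed (limma with slide block, adjusted p = 0.187 and 0.235). Lgr4, the R-spondin receptor expressed throughout the crypt, differed by -0.29 and the co-receptors Lrp5 and Lrp6 by -0.06 and -0.12.

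Of 15 secreted and membrane inhibitors 5 were tested, with a median of 0.47. Kremen2, a co-receptor for Dkk proteins, did not clear background on either control array, and no fold is given for it (limma with slide block, adjusted p = 0.429). Kremen2 entered the test only through the knockout arrays and so had to differ. Against control values in the background, its knockout value was higher by 2.68 within slide 1 and by 0.30 within slide 2. Tpbg, which encodes a membrane inhibitor of Wnt reception, was at 0.02 and -0.19 in the control against 0.49 and 0.28 in the knockout. Its difference was 0.47 on each slide (adjusted p = 0.298).

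The 17 genes of the destruction complex and the Dishevelled proteins had the narrowest range of the lists with more than 2 tested genes, from -0.25 to 0.20, with a median of 0.01. Ctnnb1, which encodes beta-catenin, differed by 0.07, and Nkd2, the relative of Nkd1, by -0.25 with a slide difference larger than its group difference (limma with slide block, adjusted p = 0.379). Csnk1d, a casein kinase, differed by 0.16. The 20 nuclear cofactors and repressors had a median of -0.01. Ctnnbip1, which blocks beta-catenin from binding TCF, differed by 0.41 and Tbl1xr1, a co-repressor component, by -0.44 (limma with slide block, adjusted p = 0.384 and 0.359).

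Among 17 tested crypt target genes outside the set, 8 were higher and 6 lower on both slides, with a median of 0.06 that was -0.03 without control 1 and -0.02 without knockout 2. Tnfrsf19, a receptor of Lgr5 cells, was at 0.91 and 1.30 in the control against 1.57 and 1.98 in the knockout, with differences of 0.66 and 0.68. Tspan5, a tetraspanin of the same crypt signature, was at 1.18 and 1.02 against 0.63 and 0.33. These 2 genes separated the groups on both slides in opposite directions, and neither passed (limma with slide block, adjusted p = 0.113 and 0.187). The proto-oncogene Myc differed by -0.10, the cyclin gene Ccnd1 by 0.15 and the surface protein gene Cd44 by 0.09. The receptor gene Ephb2 differed by -0.36, with -0.53 and -0.19 within the slides (limma with slide block, adjusted p = 0.325).

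**Figure D4:**
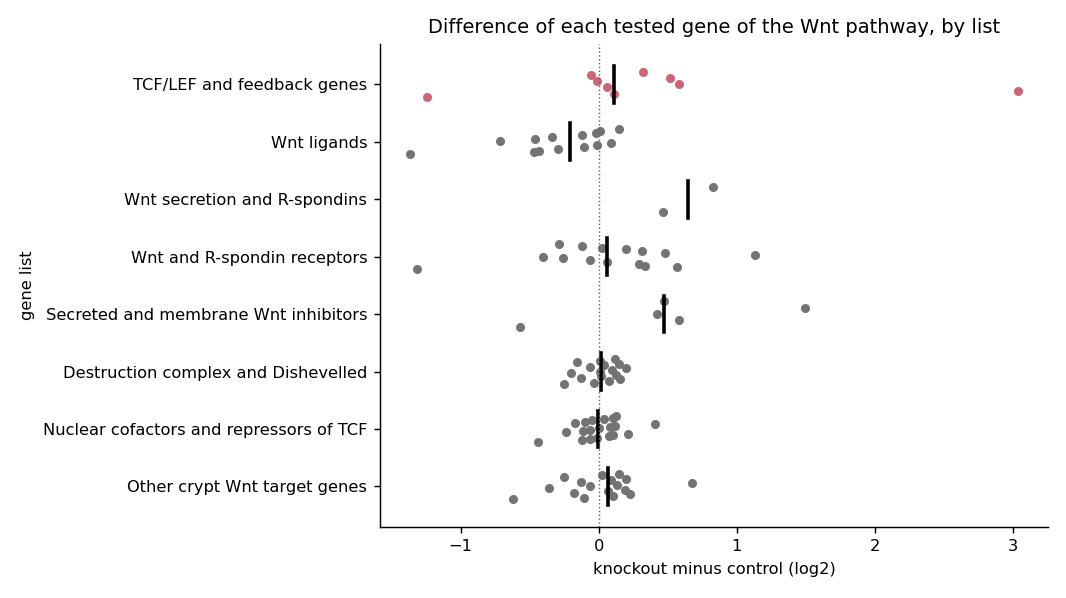
Knockout minus control on the log2 scale (horizontal axis) for each tested gene, by list, with a bar at the list median; the 9 tested members are in red. The destruction complex and the nuclear cofactors cluster between -0.44 and 0.41. The outermost members have no measured size: Lef1, at the top, is drawn against control values in the background, and Nkd1, at the bottom, is drawn at the tested of 2 opposed probes.

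Genes with the most similar profile over the 4 arrays were sought among 14797 others with a symbol, by the Euclidean distance between centred log2 values. For Lef1 this picked Chst2, Mpp4 and Sall2, at distances of 0.72 to 0.94. Since the Lef1 control values lie in the background, as do those of Mpp4 and Sall2 on 2 arrays each, these distances and their order cannot be interpreted. Chst2, a sulfotransferase gene well above background on all 4 arrays, was at -2.24 and -1.84 in the control against 0.23 and 0.41 in the knockout, a difference for which it was in effect chosen. For Axin2 the nearest were Cnpy3, 9430078K24Rik and Cog2, each within 0.03, but 8417 genes lay within 0.5 of Axin2. A flat profile is common on these arrays and sets no gene apart.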

How the data were processed

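Total RNA from sorted cells was amplified, labelled with Cy3 and hybridised to Agilent mouse arrays, per the labels. The authors deposited background-subtracted spot intensity on a linear scale from Agilent Feature Extraction (12.0.3.1 per the file headers, 11.5.1.1 per the submitters' processing notes). The authors' deposited series table holds the same intensity times 1 constant per array (5.60 to 6.68), so its scale is linear and uncentred; its column medians are 249 and 231 (control), 239 and 223 (knockout), and why it was scaled so is not known.

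Control and outlier spots were left out and each array's 75th percentile was subtracted from log2 signal. Probes were kept if both arrays of 1 group or the other cleared background (35421 of 55681). Accessions matched to RefSeq (GRCm38.p6) named 28331 probes; array annotation is on mm9, so no array coordinates are given. A gene is its brightest probe, and probes without a symbol were grouped by accession or probe name and counted as genes. Limma 3.58.1 in R 4.3.3 was fitted over 24865 genes with an intensity trend, without a slide term (2 residual degrees of freedom) and with the slide block (1). Samples sharing a slide deviated together (Pearson r across genes 0.563). Members, lists and rules were chosen with earlier results of these data known. Named pathway genes are those called, else the 2 of each list with the smallest p without the slide term and 1 sign on both slides. Lgr4, Lrp5, Lrp6, Ctnnb1, Myc, Ccnd1, Cd44, Ephb2 and the T cell and leukocyte markers lie outside this rule. They were named after their values were seen.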

Additional observations from a re-analysis of the deposited data

How the results depend on the processing

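Of 142 recomputed member differences, 131 kept their direction and stayed short of the threshold, 11 turned sign and 0 passed; members called stayed at 0 in each alternative, and so did the pathway lists (105 recomputations). The sign of Tcf7l2 turned with median scaling (0.0045), normexp (0.020) and on leaving out 1 array (-0.076 to 0.058), that of Axin2 with quantile normalization (-0.00017), that of Rnf43 on leaving out 1 array (-0.063 to 0.29), that of Notum likewise (-0.38 to 0.27), and that of Nkd1 with quantile normalization (1.12) and normexp (0.35), where its other probe became the brighter one. List medians moved by more than the spread between slides in 14 of 105 recomputations, 6 of them for Wnt ligands. Exchanging the Nkd1 probe, also added after the data were seen, moved the members' median from 0.11 to 0.32.

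Over all genes, the fit without a slide term called 0 higher and 0 lower (259 and 427 at an unadjusted p under 0.05). With the replicate block it called 13 higher and 90 lower, and 16 and 130 with every probe as its own row, a combination added after the data were seen. Leaving out 1 array gave 0 to 6 higher genes (2 without control 2, 6 without knockout 2) and 9 to 94 lower ones (18 without control 1, 71 without control 2, 9 without knockout 1, 94 without knockout 2). A lone array is then assumed to vary like the other group. With the replicate block and no intensity trend 0 genes were called. Signal near background limits Lef1, Nkd1 and Tcf7l1.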
